A study of Mus musculus with 6 samples.

Results

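The 10 genes described here are p53 target genes and members of the BCL2 family, whose balance sets whether a cell enters mitochondrial apoptosis: *Cdkn1a*, *Ccng1*, *Mdm2*, *Trp53inp1*, *Bbc3*, *Pmaip1*, *Bcl2l11*, *Bax*, *Bcl2* and *Bcl2l1*. They were chosen by name, with earlier results of these data known. All 10 were among the 16048 genes tested, of 54356 in the annotation, in polyA RNA-seq of mouse hearts at embryonic day 9.5. FlncgKO 1 to 3, the 3 knockout libraries, came from global *Flnc* knockout embryos, in which Sox2-Cre, active in the epiblast from which the embryo proper forms, had recombined a floxed *Flnc* allele. The other 3, control 1 to 3, came from littermate controls, whose alleles and Cre status the labels do not give. All were C57BL/6. The labels name the tissue as whole heart, whereas the methods speak of hearts or isolated ventricles, and the sources do not state how many hearts made a library or which litter each came from, so p-values measure the spread between these libraries. The study asked by staining whether cardiomyocytes of knockout embryos died by apoptosis. By cleaved caspase 3 staining of heart sections, it reported no difference from controls at day 9.5 and an increase at a later stage. That staining counted cardiomyocytes, whereas the RNA here is of all cells of the sample.

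p53 is a transcription factor that is held at a low level by the ubiquitin ligase MDM2 and accumulates after DNA damage and other stresses. Its targets include genes that halt the cell cycle and genes that start apoptosis. In the BCL2 family, BH3-only proteins such as PUMA, NOXA and BIM sense stress and inactivate the pro-survival proteins BCL2 and BCL-XL or engage the effectors BAX and BAK, which then open the outer mitochondrial membrane, release cytochrome c and so lead to caspase activation. p53 and several BCL2 proteins are also regulated after translation, which RNA does not show.

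The stretches upstream of the start sites are shown first because p53 acts through DNA sites, and these are the ones near the starts of the genes described below. In the RefSeq table for GRCm38.p6, 8 of the 10 genes had an entry, with 14 start sites between them. The 250 bases before each start were searched for the p53 half-site consensus, a degenerate motif of 10 bases that reads the same on both strands. All 250 bases were searched at each of the 14 starts, also where a window lay wholly within annotated exons and is not printed. A match occurred before at least 1 start of 4 of these 8 genes, against 8.20% of the 27025 genes and 7.13% of the 32851 promoters in the table. The 4 windows are printed 5′ to 3′ on the strand of the gene, cut where an annotated exon begins, with matches in capitals.

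Cdkn1a, upstream start (chr17:29090729-29090975, + strand): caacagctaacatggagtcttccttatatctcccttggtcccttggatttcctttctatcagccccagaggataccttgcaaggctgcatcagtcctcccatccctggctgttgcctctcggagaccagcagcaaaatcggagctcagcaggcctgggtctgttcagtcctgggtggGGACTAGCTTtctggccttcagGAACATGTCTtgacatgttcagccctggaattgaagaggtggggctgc
Mdm2 (chr10:117710759-117711008, − strand): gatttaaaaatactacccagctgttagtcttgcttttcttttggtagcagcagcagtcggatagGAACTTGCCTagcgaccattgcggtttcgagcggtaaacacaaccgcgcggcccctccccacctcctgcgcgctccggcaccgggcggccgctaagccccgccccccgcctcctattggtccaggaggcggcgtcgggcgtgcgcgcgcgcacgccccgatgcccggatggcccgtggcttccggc
Ccng1 (chr11:40755312-40755536, − strand): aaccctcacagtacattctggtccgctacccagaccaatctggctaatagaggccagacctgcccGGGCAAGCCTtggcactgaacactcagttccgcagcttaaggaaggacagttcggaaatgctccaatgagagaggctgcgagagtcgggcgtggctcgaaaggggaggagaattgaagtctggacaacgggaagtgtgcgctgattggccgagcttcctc
Bax (chr7:45466899-45467148, − strand): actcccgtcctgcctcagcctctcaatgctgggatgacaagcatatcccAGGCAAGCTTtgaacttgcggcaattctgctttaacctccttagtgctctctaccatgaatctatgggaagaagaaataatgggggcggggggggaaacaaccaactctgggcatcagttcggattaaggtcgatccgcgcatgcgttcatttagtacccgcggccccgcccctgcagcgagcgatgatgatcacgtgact

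The upstream *Cdkn1a* window held 2 half-sites, which began 73 and 51 bases before the start and lay 12 bases apart. Only full matches were counted. The bases directly after the second match, tgacatgttc, depart from the consensus only at the first of them. Half-sites separated by at most 13 bases occurred in 21 promoters of the table, 0.0639% of all. The *Mdm2*, *Ccng1* and *Bax* windows held 1 each, beginning 186, 185 and 201 bases before the start. No match was found in these windows of *Bbc3*, *Bcl2*, *Bcl2l1* and *Bcl2l11*, nor before the other *Cdkn1a* start, at position 29093769. Near matches were not searched for over the table. In the *Bbc3* window before position 16309583, cgacttgtcc departs from the consensus only at its first base. The bases directly before it, ctgcaagccc, depart at their first 2. A match is a description of letters and not evidence that p53 binds there, and sites within introns or farther away were not searched.

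Libraries held 19208859 to 23123255 estimated counts, and *Flnc* itself was at 844, 623 and 746 CPM (counts scaled to a library's TMM-corrected total) in controls 1 to 3 and at 127, 111 and 240 CPM in FlncgKO 1 to 3. The libraries thus matched their labels, with a log2 fold change of -2.21 (SE 0.353; edgeR adjusted p = 0.0656; DESeq2 adjusted p = 9.9e-07; exact permutation p = 0.1, two-sided, the smallest that 3 against 3 allows). The heart label held, since the summed cardiomyocyte markers were at 26103 to 32325 CPM in all libraries. Other cells differed between libraries. The 10 platelet and megakaryocyte markers summed to 67.9 to 103 CPM in controls and to 894, 556 and 193 CPM in FlncgKO 1 to 3. The 9 erythroid markers were at 2923, 2864 and 8189 CPM in controls 1 to 3 and at 7969, 7010 and 11263 CPM in FlncgKO 1 to 3. The 4 Y-linked genes were at 117 to 140 CPM in controls and at 80.7, 3.88 and 4.28 CPM in FlncgKO 1 to 3, so sex differed with genotype between libraries. In such bulk RNA, fewer cells of a type and less RNA per cell cannot be told apart.

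Across the 10 genes, differences between FlncgKO and control hearts were small. Fold changes on the log2 scale (FlncgKO minus control) ran from -0.43 for *Trp53inp1* to 0.68 for *Cdkn1a*, with a median of 0.13 against 0.01 over all genes tested, and were above 0 for 8 genes and below 0 for 2. By edgeR's quasi-likelihood test, adjusted after Benjamini and Hochberg over all genes, 0 of 10 were higher and 0 lower at an adjusted p under 0.05, where 1.06% and 0.249% of all genes were called. At an unadjusted p under 0.05, 3 were higher (*Cdkn1a*, *Mdm2* and *Bcl2l1*) against 13.3% of all genes, and 1 was lower (*Trp53inp1*) against 8.84%. The same 4 genes were the ones whose groups did not overlap, as was so for 15.7% of all genes in the higher and 14.1% in the lower direction. DESeq2, the tool the authors used, called 2 higher (*Cdkn1a* and *Bcl2l1*) and 1 lower (*Trp53inp1*), against 6.22% and 2.27% of all genes. The platelet and Y-linked sums given above also separated the groups. The part of platelet RNA in the values of these genes was not tested, and fits with the Y-linked sum are given near the end.

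**Figure D1:**
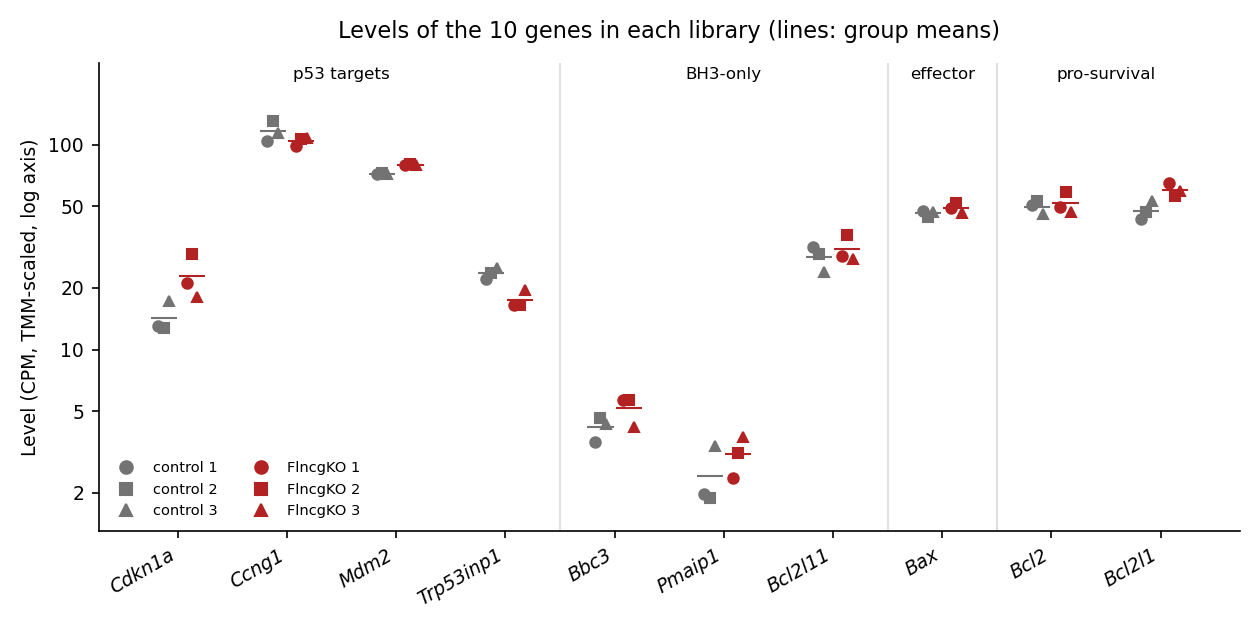
CPM on a log scale for each of the 10 genes, by library, with controls in grey, FlncgKO libraries in red, the symbol giving the replicate number and short lines the group means. The FlncgKO points lie above all control points for *Cdkn1a*, *Mdm2* and *Bcl2l1* and below them for *Trp53inp1*, and overlap for the other 6 genes.

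*Cdkn1a* (ENSMUSG00000023067; chromosome 17, 29090976 to 29100727, GRCm38) encodes p21, the cyclin-dependent kinase inhibitor through which p53 halts the cell cycle, and showed the largest difference of the 10. It was at 13.04, 12.79 and 17.20 CPM in controls 1 to 3 and at 21.19, 29.43 and 18.09 CPM in FlncgKO 1 to 3, from 265 to 667 counts a library. FlncgKO 3 lay just above control 3, while FlncgKO 2 was the highest. The mean was 1.60-fold higher in FlncgKO hearts (14.3 ± 2.48 against 22.9 ± 5.86 CPM, SD, n = 3 each), with a log2 fold change of 0.68 (SE 0.206, 95% interval 0.19 to 1.17; edgeR adjusted p = 0.127; DESeq2 adjusted p = 0.0252). The DESeq2 call held without control 3 (adjusted p = 0.0121) and without FlncgKO 3 (0.00284), and was lost without control 1 (0.240), control 2 (0.239), FlncgKO 1 (0.0846) or FlncgKO 2 (0.285).

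Its 3 expressed transcripts, which encode the same 159-residue reading frame from different starts, had different patterns. *Cdkn1a*-201, from the main start at position 29093769, was at 8.65, 9.25 and 13.5 TPM (the authors' values, which correct for transcript length) in controls 1 to 3 and at 16.5, 24.1 and 14.4 TPM in FlncgKO 1 to 3. *Cdkn1a*-202, from the upstream start whose window with 2 half-sites is printed above, was at 0, 0.860 and 0.190 TPM and at 1.04, 2.91 and 1.61 TPM. *Cdkn1a*-203, which starts farther downstream at position 29097900, was at 5.42, 3.38 and 3.26 TPM and at 3.83, 3.56 and 1.85 TPM. The first and second were higher in all 3 FlncgKO libraries, and the third overlapped between groups. As a share of the gene, *Cdkn1a*-203 was at 38.1%, 25.0% and 19.2% in the controls and at 17.9%, 11.6% and 10.4% in the FlncgKO libraries, groups that did not overlap. *Cdkn1a*-202 rested on 0 to 27.6 estimated counts a library. With 3 libraries a group, the exact permutation test cannot give a p under 0.1, so transcript values stand as a description.

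*Mdm2* (ENSMUSG00000020184; chromosome 10, 117688875 to 117710758) encodes the ubiquitin ligase that p53 induces and that in turn limits p53. It was at 72.3, 72.6 and 72.0 CPM in controls 1 to 3 and at 79.6, 80.4 and 79.5 CPM in FlncgKO 1 to 3. Libraries of a group lay within 1 CPM of each other, closer than for any other of the 10 genes, and the groups were separate. With 3 libraries a group and 1490 to 1822 counts a library, this closeness is a description and not a measured trait of the gene. The difference was 10.4% of the control mean, a log2 fold change of 0.14 (SE 0.048, 95% interval 0.03 to 0.25), and it did not pass the threshold (edgeR adjusted p = 0.142; DESeq2 adjusted p = 0.236). The full-length transcript *Mdm2*-201 made up 69.0 to 72.9% of the gene's TPM in controls and 61.7 to 68.6% in FlncgKO libraries. *Mdm2*-202, which encodes 440 residues in place of 489, was at 0.276 to 1.36 TPM in controls and at 5.15, 2.86 and 1.05 TPM in FlncgKO 1 to 3, with overlap.

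*Ccng1* (chromosome 11, 40748552 to 40755311), which encodes cyclin G1, a p53 target that feeds back on MDM2, had a lower mean in FlncgKO hearts, unlike *Cdkn1a* and *Mdm2*. Its levels were 105, 131 and 114 CPM in controls 1 to 3 and 98.5, 107 and 108 CPM in FlncgKO 1 to 3, which overlap. The log2 fold change was -0.15 (SE 0.088, 95% interval -0.36 to 0.05; edgeR adjusted p = 0.344; DESeq2 adjusted p = 0.377).

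*Trp53inp1* (chromosome 4, 11156431 to 11174379) encodes a stress-induced p53 cofactor that also acts in autophagy, and had the lowest fold change of the 10. Controls 1 to 3 had 22.2, 23.6 and 25.0 CPM, and FlncgKO 1 to 3 had 16.5, 16.5 and 19.6 CPM, so that all FlncgKO libraries were below all controls. The mean was 25.9% below that of controls (23.6 ± 1.37 against 17.5 ± 1.82 CPM, SD, n = 3 each), a log2 fold change of -0.43 (SE 0.097, 95% interval -0.66 to -0.21; edgeR adjusted p = 0.0735; DESeq2 adjusted p = 0.0143). In edgeR the difference passed without FlncgKO 3 (adjusted p = 0.0137). In DESeq2 it passed without control 1 (0.0419) or FlncgKO 3 (0.00147) and was lost without control 2 (0.0955), control 3 (0.102), FlncgKO 1 (0.0801) or FlncgKO 2 (0.112). Its coding transcript *Trp53inp1*-201 was at 8.12, 6.95 and 8.37 TPM in controls and at 6.31, 3.72 and 6.05 TPM in FlncgKO libraries, whereas the noncoding *Trp53inp1*-202 overlapped between groups, at 1.12 to 2.63 and 0.403 to 2.90 TPM.

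**Figure D2:**
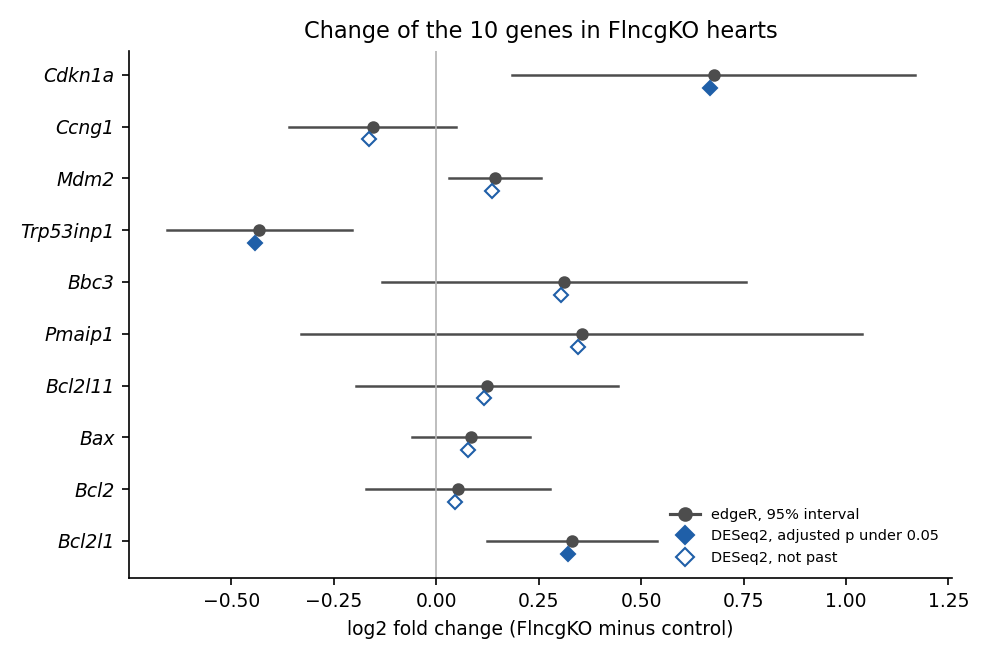
Log2 fold change of each gene, FlncgKO minus control, with circles and bars for edgeR's estimate and its 95% interval and diamonds for DESeq2's estimate, filled where its adjusted p was under 0.05. Intervals exclude 0 for *Cdkn1a*, *Mdm2*, *Trp53inp1* and *Bcl2l1*, and DESeq2's filled diamonds are *Cdkn1a*, *Trp53inp1* and *Bcl2l1*.

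The BH3-only genes, which start apoptosis, showed no difference beyond the spread between libraries. *Bbc3* (PUMA), the p53 target held to be the main inducer of p53-dependent cell death, was at 3.52, 4.63 and 4.35 CPM in controls 1 to 3 and at 5.68, 5.65 and 4.17 CPM in FlncgKO 1 to 3. FlncgKO 3 fell within the range of the controls, and the log2 fold change was 0.31 (SE 0.191, 95% interval -0.13 to 0.76; edgeR adjusted p = 0.381). *Pmaip1* (NOXA), another p53 target, was the least abundant, at 1.97, 1.88 and 3.38 CPM in controls 1 to 3 and at 2.37, 3.13 and 3.75 CPM in FlncgKO 1 to 3. These values rest on 39 to 72 counts a library, and the interval of its log2 fold change, -0.33 to 1.04 around 0.35 (SE 0.295; edgeR adjusted p = 0.524), includes both no difference and a doubling. *Bcl2l11* (BIM), which responds to loss of growth factors and of anchorage more than to p53, was at 31.7, 29.3 and 24.1 CPM in controls and at 28.7, 36.2 and 27.7 CPM in FlncgKO libraries, with a log2 fold change of 0.12 (SE 0.137, 95% interval -0.20 to 0.44; edgeR adjusted p = 0.643). Within this gene the longest coding form (196 residues) supplied 64.1 to 74.3% of the TPM in controls and 58.6 to 61.2% in FlncgKO libraries, while its TPM overlapped (7.61 to 10.5 against 8.63 to 11.0).

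*Bax* (chromosome 7, 45461697 to 45466898), the effector that p53 can induce, was at 47.7, 44.4 and 46.9 CPM in controls 1 to 3 and at 48.9, 52.0 and 46.6 CPM in FlncgKO 1 to 3, with a log2 fold change of 0.09 (SE 0.062, 95% interval -0.06 to 0.23; edgeR adjusted p = 0.461). The upper end of this interval, 0.23 on the log2 scale, bears on mean *Bax* RNA over all cells of the samples. A larger rise confined to some cells was not tested. An overlapping coding gene on the same strand, Gm45808, could share its reads, and was at 0 to 0.0965 CPM.

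Of the pro-survival genes, *Bcl2l1* but not *Bcl2* had groups that did not overlap. *Bcl2* was at 50.5, 53.3 and 45.9 CPM in controls 1 to 3 and at 49.9, 58.7 and 46.7 CPM in FlncgKO 1 to 3, which overlap almost fully (log2 fold change 0.05, SE 0.097, 95% interval -0.17 to 0.28; edgeR adjusted p = 0.792). *Bcl2l1* (chromosome 2, 152780668 to 152831728), which encodes BCL-XL and is known to keep erythroid cells and platelets alive, was at 43.18, 47.05 and 53.04 CPM in controls 1 to 3 and at 64.7, 56.0 and 59.4 CPM in FlncgKO 1 to 3. All FlncgKO libraries were above all controls, and the mean was 1.26-fold higher (47.8 ± 4.97 against 60.1 ± 4.41 CPM, SD, n = 3 each).

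The log2 fold change of *Bcl2l1* was 0.33 (SE 0.089, 95% interval 0.12 to 0.54; edgeR adjusted p = 0.0960; DESeq2 adjusted p = 0.0452). The DESeq2 call held only without control 3 (adjusted p = 0.00957) among the 6 fits that left out a library, and was lost without control 1 (0.292), control 2 (0.237), FlncgKO 1 (0.228), FlncgKO 2 (0.0675) or FlncgKO 3 (0.0741). Among controls, control 3 had the most *Bcl2l1*, platelet and erythroid RNA, and among FlncgKO libraries FlncgKO 1 had the most *Bcl2l1* and platelet RNA and FlncgKO 3 the most erythroid RNA. Control 1 had more platelet and erythroid RNA than control 2 but less *Bcl2l1*. FlncgKO 2 had more platelet and less erythroid RNA than FlncgKO 3, and less *Bcl2l1*. The part of these cells in the *Bcl2l1* result was not tested. Of its transcripts, *Bcl2l1*-202, which encodes the full 233-residue protein from an internal start, was at 13.2, 16.0 and 14.5 TPM in controls and at 16.8, 19.5 and 21.3 TPM in FlncgKO libraries. *Bcl2l1*-201, which encodes the same protein from the most upstream start, overlapped, at 12.2, 9.69 and 14.9 TPM and at 20.2, 13.3 and 12.1 TPM. The shorter *Bcl2l1*-203 (2.53 to 3.499 against 3.73 to 4.13 TPM) and *Bcl2l1*-204 (0.254 to 0.622 against 0.720 to 2.20 TPM) were also higher in all FlncgKO libraries.

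**Figure D3:**
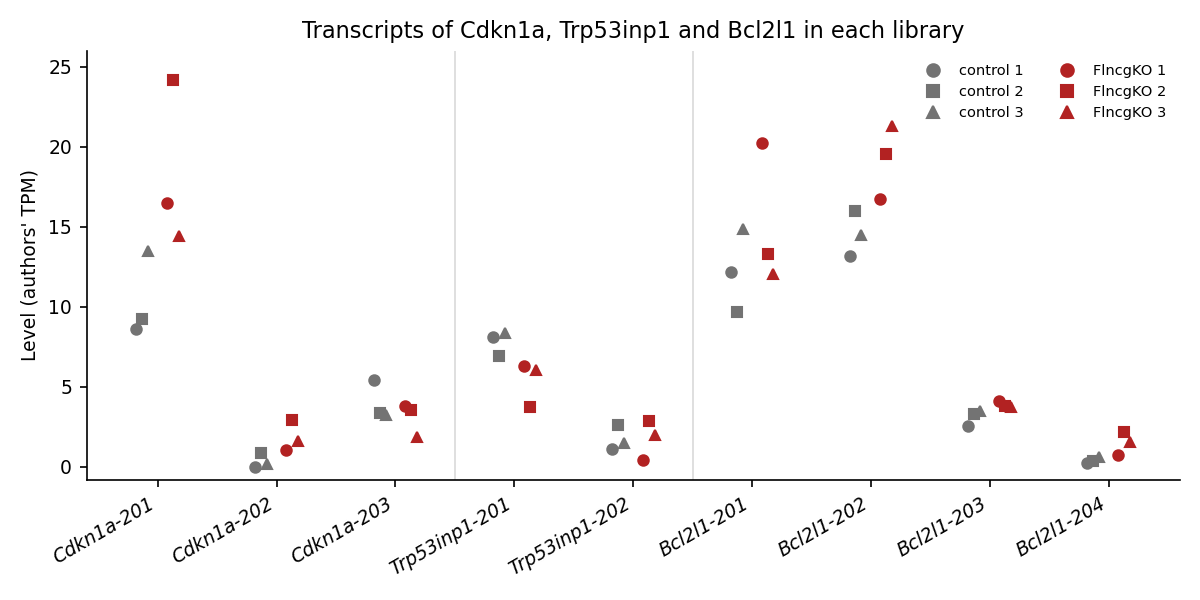
Level of the transcripts of *Cdkn1a*, *Trp53inp1* and *Bcl2l1* in each library, in the authors' TPM, with controls in grey and FlncgKO libraries in red. *Cdkn1a*-201, *Cdkn1a*-202, *Bcl2l1*-202, *Bcl2l1*-203 and *Bcl2l1*-204 lie higher in all FlncgKO libraries and *Trp53inp1*-201 lower, while *Cdkn1a*-203, *Trp53inp1*-202 and *Bcl2l1*-201 overlap.

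Over all 10 genes, 34 of 52 annotated transcripts reached a mean of 0.5 TPM, 22 of them coding. Of these 34, 5 had a TPM that was higher in all FlncgKO libraries and 1 a TPM that was lower, against 9.57% and 7.27% of the 48403 transcripts that reached this mean. The 6 belonged to *Cdkn1a*, *Bcl2l1* or *Trp53inp1*. As a share of their gene, 0 of the 34 were higher and 4 lower in all FlncgKO libraries, against 5.38% and 5.39% of 47488 transcripts. The 4 were *Cdkn1a*-203, *Mdm2*-201, an intron-retaining transcript of *Mdm2* and the longest coding form of *Bcl2l11*.

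Per length, the effector was the most abundant of the 10 in control hearts. Mean levels were 105 ± 4.46 TPM for *Bax*, 69.4 ± 7.51 for *Ccng1*, 50.2 ± 0.609 for *Mdm2* and 34.0 ± 4.42 for *Bcl2l1* (SD, n = 3). *Cdkn1a* (14.9 ± 1.84 TPM), *Bcl2l11* (13.8 ± 2.495) and *Bcl2* (12.2 ± 1.10) followed, and of these neighbours *Cdkn1a* and *Bcl2l11*, and *Bcl2l11* and *Bcl2*, overlapped between libraries. *Trp53inp1* (9.78 ± 0.129 TPM), *Bbc3* (5.81 ± 1.48) and *Pmaip1* (1.93 ± 0.595) were the least abundant. In FlncgKO hearts the order was the same except that *Bbc3* (7.62 ± 0.690 TPM) and *Trp53inp1* (7.49 ± 0.873) changed places, with overlapping libraries. The ratio of *Bax* to *Bcl2* TPM was 8.70 ± 1.03 in controls and 8.73 ± 0.288 in FlncgKO hearts (SD, n = 3 each). Set against the summed pro-survival RNA of *Bcl2*, *Bcl2l1* and *Mcl1*, *Bax* was at 0.718 ± 0.0379 and 0.678 ± 0.0375, again with overlap.

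Upstream of these genes, p53 RNA showed no difference beyond the spread between libraries. *Trp53*, named here after its values were seen, was at 95.6, 91.1 and 86.7 CPM in controls 1 to 3 and at 93.6, 90.4 and 91.8 CPM in FlncgKO 1 to 3 (log2 fold change 0.01, SE 0.057; edgeR adjusted p = 0.921). Of 13 listed genes for p53, its relatives and its regulators, 10 were tested (median log2 fold change -0.01), with 0 called in edgeR. Before adjustment 2 were higher and 1 lower, against 13.3% and 8.84% of all genes tested. In all FlncgKO libraries 1 (10%) was higher and 1 (10%) lower than all controls, against 15.7% and 14.1% of all genes. DESeq2 called 0 higher and 1 lower, against 6.22% and 2.27% of all genes. That 1 was *Trp53bp1*, a DNA double-strand break response protein, at 147 to 156 CPM in controls and 126 to 136 CPM in FlncgKO libraries (log2 fold change -0.24, SE 0.056; edgeR adjusted p = 0.0763; DESeq2 adjusted p = 0.00694). The checkpoint kinases *Atr* (log2 fold change 0.28, edgeR adjusted p = 0.154) and *Chek2* (0.26, edgeR adjusted p = 0.210) did not pass in either tool.

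Of 29 other p53 target genes, 27 were tested, and their median log2 fold change was 0.06. None passed in edgeR, though before adjustment 7 were higher and 3 lower at a p under 0.05, against 13.3% and 8.84% of all genes. DESeq2 called 4 of them higher and 1 lower, against 6.22% and 2.27% of all genes. *Sesn2*, a stress-induced inhibitor of mTORC1 signalling, was at 11.9, 14.4 and 14.7 CPM in controls 1 to 3 and at 24.5, 49.2 and 23.1 CPM in FlncgKO 1 to 3 (log2 fold change 1.24, SE 0.329; edgeR adjusted p = 0.112; DESeq2 adjusted p = 0.00024). *Btg2*, which restrains proliferation, was at 18.7, 19.8 and 22.1 CPM and at 39.9, 43.4 and 23.5 CPM (0.82, SE 0.233; edgeR adjusted p = 0.1203; DESeq2 adjusted p = 0.00392). In both genes FlncgKO 3 was the lowest of its group, as it was for *Cdkn1a*.

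*Plk2*, a polo-like kinase, was at 47.7 to 57.3 CPM in controls and at 69.6, 105 and 73.6 CPM in FlncgKO 1 to 3 (log2 fold change 0.68; edgeR adjusted p = 0.0982; DESeq2 adjusted p = 0.000777). *Polk*, a translesion DNA polymerase, was at 10.04 to 11.93 CPM and at 13.6 to 19.5 CPM (0.60; edgeR adjusted p = 0.0827; DESeq2 adjusted p = 0.0225). *Tigar*, a phosphatase that lowers glycolytic flux, was the 1 called lower, at 28.5 to 30.5 CPM and at 20.4 to 25.3 CPM (-0.35; edgeR adjusted p = 0.0950; DESeq2 adjusted p = 0.0458). Of the 27 genes of the list, 9 (33.3%) were higher and 5 (18.5%) lower in all FlncgKO libraries, against 15.7% and 14.1% of all genes tested.

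**Figure D4:**
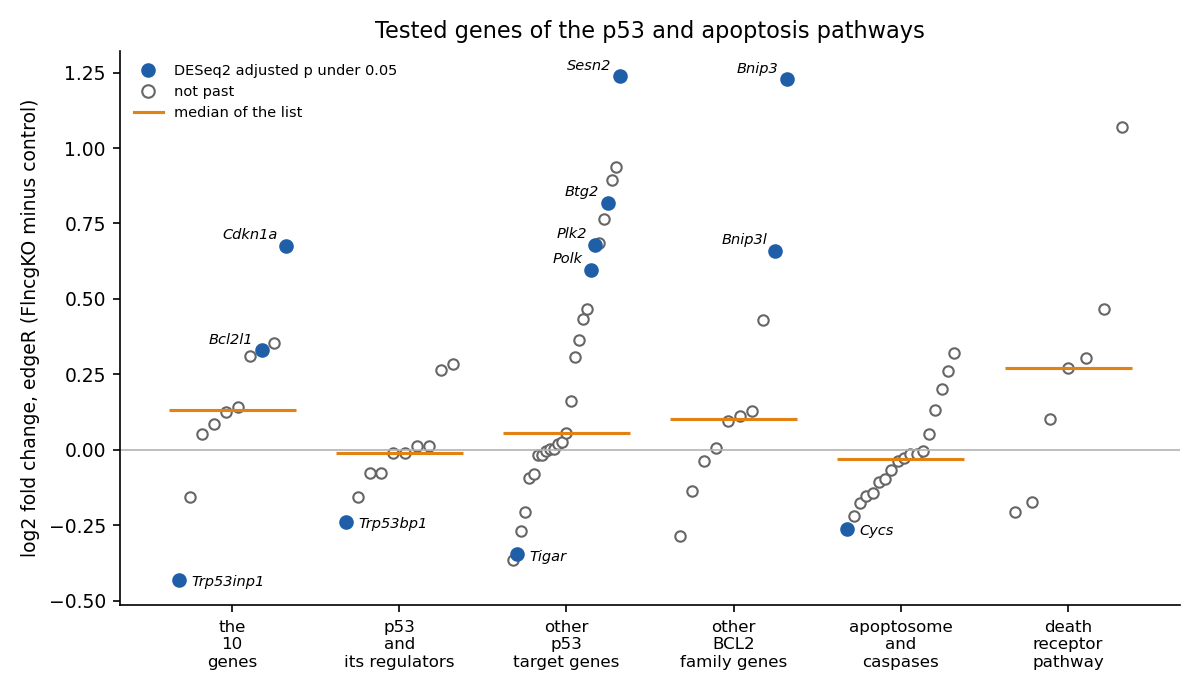
Log2 fold change (edgeR, FlncgKO minus control) of every tested gene of the 10 and of 5 lists of pathway genes, ordered by size within a list, with blue points for an adjusted p under 0.05 in DESeq2 and orange lines for list medians. Medians lie between -0.03 for apoptosome and caspase genes and 0.27 for the death receptor pathway.

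Among 15 other BCL2 family genes, 10 were tested, with a median log2 fold change of 0.10. None was called in edgeR, with 4 higher and 0 lower before adjustment, against 13.3% and 8.84% of all genes. In all FlncgKO libraries 4 (40%) were higher and 0 lower than all controls, against 15.7% and 14.1% of all genes. DESeq2 called 2 higher and 0 lower, against 6.22% and 2.27% of all genes. The 2 called genes encode mitochondrial proteins with a BH3-like motif that mark mitochondria for autophagy and are known targets of hypoxia. *Bnip3* was at 197, 184 and 224 CPM in controls 1 to 3 and at 461, 642 and 315 CPM in FlncgKO 1 to 3 (log2 fold change 1.23, SE 0.278; edgeR adjusted p = 0.0972; DESeq2 adjusted p = 0.00167). *Bnip3l*, which also clears mitochondria from maturing erythroid cells, was at 196, 197 and 232 CPM and at 329, 389 and 269 CPM (0.66, SE 0.145; edgeR adjusted p = 0.0811; DESeq2 adjusted p = 4.5e-05). In both genes FlncgKO 2 was the highest and FlncgKO 3 the lowest of its group, and the part of erythroid RNA in these values was not tested. The BH3-only gene *Bik* had a log2 fold change of 0.43 (edgeR adjusted p = 0.149; DESeq2 adjusted p = 0.224).

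Fold changes of genes of the execution machinery were small, from -0.26 to 0.32 on the log2 scale, in both directions. All 18 listed apoptosome, caspase and inhibitor genes were tested, with a median log2 fold change of -0.03 and 0 calls in edgeR. Before adjustment 3 were higher and 3 lower, against 13.3% and 8.84% of all genes tested. In all FlncgKO libraries 4 (22.2%) were higher and 5 (27.8%) lower than all controls, against 15.7% and 14.1% of all genes. DESeq2 called 0 higher and 1 lower, against 6.22% and 2.27% of all genes. That gene was *Cycs*, cytochrome c, which has many processed pseudogenes, at 141 to 156 CPM in controls and 115 to 132 CPM in FlncgKO libraries (-0.26, SE 0.070; edgeR adjusted p = 0.0934; DESeq2 adjusted p = 0.0175). *Apaf1*, the apoptosome scaffold, had 0.26 (edgeR adjusted p = 0.104) and *Xiap*, which inhibits caspases, 0.20 (edgeR adjusted p = 0.121).

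In the death receptor pathway 7 of 10 genes were tested, with a median log2 fold change of 0.27. Neither tool called any of them in either direction, where DESeq2 called 6.22% of all genes higher and 2.27% lower. In all FlncgKO libraries 4 of the 7 (57.1%) were higher and 1 (14.3%) lower than all controls, against 15.7% and 14.1% of all genes. Before adjustment, where 13.3% of all genes were higher and 8.84% lower in edgeR, 3 of the 7 had a p under 0.05, all higher. These were *Cflar*, the inhibitor of caspase 8 (38.8 to 39.9 against 45.3 to 51.4 CPM; log2 fold change 0.27; edgeR adjusted p = 0.0803), the ligand *Tnfsf10* (TRAIL; 0.732 to 1.01 against 1.36 to 2.38 CPM; 1.07; edgeR adjusted p = 0.0978) and its receptor *Tnfrsf10b*, which is also a p53 target (9.61 to 12.8 against 13.8 to 17.9 CPM; 0.47; edgeR adjusted p = 0.117).

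The calls of DESeq2 changed when single libraries were left out and when the Y-linked sum was a covariate. Of the 12 genes it called among the 10 and the 5 lists, 3 (*Sesn2*, *Plk2* and *Bnip3l*) stayed past the threshold in each of the 6 fits without a library. Over all genes, DESeq2 called 6.22% higher and 2.27% lower with all 6 libraries, 988 and 361 genes. Without a library it called 520 to 1292 genes higher and 114 to 513 lower. The share of all its calls that stayed in each of these fits was not computed. A fit with fewer libraries also has less power. With the summed Y-linked RNA as a covariate, 0 of the 12 passed and 1.46% of all genes were called higher and 0.134% lower. Since that sum itself separated the groups, the fit has little power and cannot tell sex from genotype. Under that covariate the log2 fold changes were still 0.52 for *Cdkn1a*, -0.53 for *Trp53inp1* and 0.46 for *Bcl2l1*, with DESeq2 adjusted p of 1.00, 0.499 and 0.308.

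**Figure D5:**
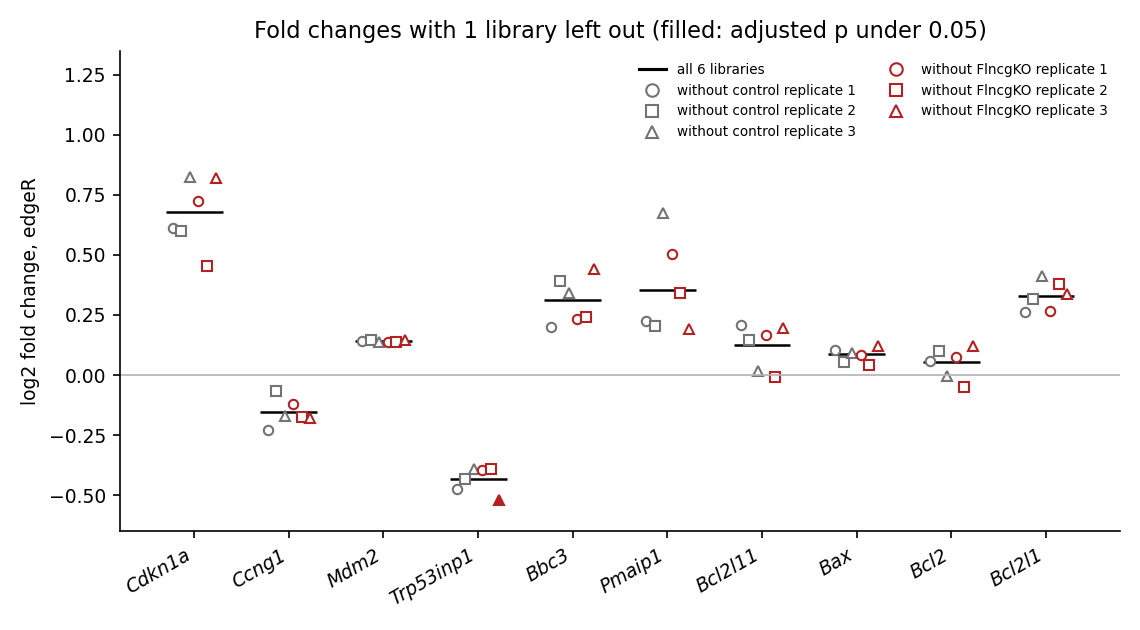
edgeR's log2 fold change of each gene with all 6 libraries (black line) and with each library left out in turn (grey for a control, red for a FlncgKO library, the symbol giving its number), filled where the adjusted p was under 0.05. *Cdkn1a* moves between 0.45 without FlncgKO 2 and 0.83 without control 3, *Mdm2* stays between 0.14 and 0.15, *Bcl2l11* and *Bcl2* reach below 0, and the single filled point is *Trp53inp1* without FlncgKO 3.

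Of 14333 genes compared, 3 are named whose pattern over the 6 libraries was most like that of *Cdkn1a*. They were *Vrk3*, a nuclear protein (Pearson's r = 0.999 of log2 CPM), *Fbxo8*, an F-box protein (0.994), and *Upp1*, uridine phosphorylase (0.994). As a description, 170 genes had an r above 0.95, and the 6 points share the 2 genotypes and the same libraries. *Upp1* was at 6.45, 5.89 and 9.71 CPM in controls 1 to 3 and at 12.65, 18.97 and 10.90 CPM in FlncgKO 1 to 3, with FlncgKO 2 the highest and FlncgKO 3 the lowest of their group, as for *Cdkn1a*.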

How the data were processed

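PolyA RNA from hearts of 3 control and 3 FlncgKO embryo libraries was prepared with a strand-specific Illumina TruSeq kit. The authors quantified reads with salmon (version not given in the sources used here) on GENCODE M22 transcripts of GRCm38.p6, and tested genes with DESeq2 1.22.2. The deposited files hold estimated counts and TPM for 140658 transcripts a library. Here, estimated counts were summed per gene through GENCODE M21, also on GRCm38, and rounded. Transcripts without a gene there (0.370% of transcripts, 0.108 to 0.131% of counts) were left out. The deposited TPM were used for transcripts and for levels between genes.

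The main test was the robust quasi-likelihood test of edgeR 4.0.16 (R 4.3.3), with TMM scaling and low genes removed by filterByExpr (minimum count 10). P-values were adjusted after Benjamini and Hochberg over all 16048 genes, at a threshold of 0.05. DESeq2 1.42.0 was run on the same counts. Replicate numbers were not treated as pairs. Alternatives were other scalings, filters, length offsets, a replicate block, a Y-linked covariate and leaving out each library. DESeq2 with that covariate was chosen after seeing the data. The 10 genes and all lists were chosen with earlier results of these data known. All 10 are named. Of each pathway list, genes called by either tool and the 3 with the smallest edgeR p are named, and, for *Cdkn1a*, the 3 genes with the highest r (mean of at least 1 CPM). Marker lists are given as sums, and those not given in the report were, in controls and FlncgKO libraries, 842 to 1012 and 906 to 1118 CPM (endothelial), 67.2 to 98.9 and 68.0 to 84.6 (epicardial), 1.11 to 8.21 and 2.38 to 20.4 (macrophage), 1.16 to 6.77 and 3.17 to 15.9 (surface ectoderm), 7.63 to 91.8 and 5.43 to 30.8 (liver bud), and 8.94 to 12.3 and 3.22 to 7.25 (neural). Promoter sequences are from RefSeq (GRCm38.p6).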

Additional observations from a re-analysis of the deposited data

How the results depend on the processing

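The direction of 7 of the 10 genes held in all 21 alternatives. With the Y-linked covariate the log2 fold change turned negative for *Pmaip1* (-0.11 in edgeR, -0.11 in DESeq2), *Bcl2l11* (-0.0089 and -0.011) and *Bcl2* (-0.014 and -0.016). With a library left out it ran from -0.013 to 0.21 for *Bcl2l11*, below 0 without FlncgKO 2, and from -0.054 to 0.12 for *Bcl2*, below 0 without control 3 or FlncgKO 2. The cause was not tested. No edgeR alternative called any of the 10 higher. *Trp53inp1* was the 1 called lower with no filter on low counts (adjusted p = 0.0277) and in the replicate block fit (0.0424), which called 512 genes higher and 120 lower of all tested. The numbers were not used as pairs, since deviations from the group means correlated at 0.57 and 0.62 for numbers 2 and 3 but at 0.09 for number 1, and control 1 was closest to FlncgKO 2 (0.27). DESeq2 called 2 higher and 1 lower, and, with a library left out, 0 to 2 higher and 0 to 1 lower. In edgeR, leaving out a library gave 0 to 1 lower.

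*Flnc* had -2.22 in DESeq2 and -2.60 in DESeq2 with the Y-linked covariate, both past the threshold, and -2.64 to -2.01 with a library left out. In edgeR it passed without FlncgKO 3. Over all genes, 170 were called higher and 40 lower, against 988 and 361 in DESeq2, 392 and 162 with no filter, 215 and 62 with 10 counts in every library, 63 and 13 with length offsets, and 0 and 0 with the Y-linked covariate in edgeR (906 and 391 before adjustment; 241 and 22 in DESeq2). With a library left out, edgeR called 1 to 989 higher and 0 to 283 lower, fewest without control 1 or control 2 and most without FlncgKO 3, where the calls included *Btg2*, *Polk*, *Tigar*, *Bnip3*, *Bnip3l*, *Atr*, *Apaf1* and *Cflar* of the listed genes named above. At a minimum of 0.1 TPM, 43 transcripts were kept. Depth limits *Pmaip1* and *Bbc3* most, with 39 to 72 and 77 to 128 counts.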
